A study of Homo sapiens with 24 samples.

Results

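The genes described here are 38 genes of glucose breakdown and of the metabolic response to low oxygen, taken from a list that runs from the glucose transporters through the glycolytic enzymes to lactate dehydrogenase and adds oxygen sensors and genes that hypoxia induces. Of the 38, 36 had a probe set on the array that named the gene alone, among 19775 genes in all with such a probe set, and where a gene had several, the one with the highest mean log2 signal over the 24 arrays was used. The lactate transporters SLC16A1 and SLC16A3 were not analysed here. The gene listed as MXD2 is MXI1 in RefSeq.

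Expression was measured in MV4-11 and MOLM-14, established human acute myeloid leukemia lines with an internal tandem duplication in the receptor kinase FLT3 (FLT3-ITD). Cells of each line were treated for 24 hours with ABT-869 and SAHA together (the combination), with SAHA alone (6 µM), with ABT-869 alone (3 nM) or with the solvent DMSO, and the methods do not restate the doses within the combination. ABT-869 blocks FLT3 and other receptor kinases of its kind, whereas SAHA blocks the enzymes that remove acetyl groups from histones. Each of the 8 groups held 3 Affymetrix U133 Plus 2.0 arrays, which the methods call biological triplicates. The paper describes MV4-11 as expressing only the mutated FLT3 allele, and MOLM-14 as carrying a mutated and a wild-type allele. Each genotype is represented by the lines themselves, so a difference between MOLM-14 and MV4-11 is a difference between 2 lines. The FLT3 genotype cannot be told apart from their other differences. The labels name no culture at low oxygen, and hypoxia here names the gene list, not a treatment.

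The values were linear signals in arbitrary units, already scaled by array to a trimmed mean between 500.06 and 500.069, and only 3 arrays per group limit the precision. Median signals of the arrays lay between 61.2 and 99.4. The ratio of 3' to 5' signal, a measure of RNA integrity, was 0.923 to 1.06 for GAPDH and 1.06 to 1.38 for ACTB, and the highest ACTB ratio was on MV4-11 combination replicate 3. In 4 groups the farthest array deviated from its group with an SD over 0.3 on the log2 scale (MOLM-14 combination replicate 1, MOLM-14 DMSO replicate 3, MV4-11 combination replicate 3 and MV4-11 ABT-869 replicate 2). Of 7 myeloid markers, FLT3 (10510.6 to 16736), LYZ (10939 to 18698), CSF1R (428.8 to 1125) and ITGAM (935 to 2353) were measured well above the array medians, whereas CD14, ANPEP and FCGR1A stayed at or below 106.1 on every array. The median log2 change over all probe sets was not 0 in every comparison: it was -0.15 between the lines with DMSO, -0.14 with SAHA in MOLM-14, 0.11 for the combination over SAHA in MOLM-14 and 0.10 for the departure from the summed changes in MOLM-14, and quantile normalization brought these to 0.00, -0.01, -0.01 and -0.01.

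Glycolysis splits glucose into pyruvate in a chain of enzymes, many of which exist as several isoenzymes encoded by separate genes, and lactate dehydrogenase then turns pyruvate into lactate. In the presence of oxygen the prolyl hydroxylases of the EGLN family mark the alpha subunits of the hypoxia-inducible factor (HIF) for destruction. When oxygen is scarce the factor accumulates and raises genes for glucose transporters, glycolytic isoenzymes, pyruvate dehydrogenase kinases, mitophagy receptors and angiogenic factors.

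In MV4-11, 12 of the 36 genes fell and 1 rose with the combination over DMSO at an adjusted p under 0.05 (limma, Benjamini-Hochberg over all probe sets). The genes that fell were the transporter SLC2A3, the hexokinase HK2, the aldolase ALDOC, the regulator PFKFB4, the enolase ENO2, the hydroxylases and demethylase EGLN1, P4HA1 and KDM3A, and BNIP3, VEGFA, ANKRD37 and MXD2. The gene that rose was the hexokinase HK1. Lower calls made up 33.3% of the genes on the list, against 4.05% of the 54613 probe sets tested and 9.01% of the 11955 genes whose probe set lay above the median signal, and higher calls made up 2.78%, against 4.89% of all probe sets and 11.5% of those genes. The median change was -0.33 on the log2 scale over the 36 genes and -0.02 over all probe sets. The list was chosen with earlier results of these data known, so these shares are not an independent test of it. In bulk RNA of this kind, fewer cells that express a gene and less RNA of it per cell cannot be told apart. A fit of only the combination and DMSO arrays left 6 calls, and limma-trend gave 20.

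At the transporter step, SLC2A3 encodes GLUT3, a high-affinity glucose transporter. Its signals in MV4-11 were 3737, 4189.7 and 4097 with the combination, 8526, 10279 and 11994 with SAHA, 6154, 8076 and 7332 with ABT-869 and 13299, 12766 and 12247 with DMSO. All combination arrays lay below every other array of the line, and both single drugs lay below DMSO without overlap. The combination was 3.19-fold lower than DMSO (log2 change -1.67, SE 0.16, limma adjusted p = 0.000523). Its 3 probe sets had log2 changes of -1.67, -1.84 and -1.94, but SLC2A14 is a near-identical copy whose transcripts they may also bind. SLC2A1, which encodes the widely expressed GLUT1, gave 641 ± 101 with the combination and 773 ± 138 with DMSO (SD, n = 3 each), a difference that did not pass the test (-0.27 ± 0.17 log2, SE).

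Hexokinases trap glucose in the cell by phosphorylating it, and HK1 and HK2 went opposite ways. HK1 averaged 3408 ± 439 with the combination, 3170.1 ± 101 with SAHA, 2270.5 ± 76.7 with ABT-869 and 1898 ± 249.9 with DMSO (SD, n = 3 each). It was 1.80-fold higher with the combination than with DMSO (limma adjusted p = 0.00672), and the combination arrays did not overlap with DMSO. HK2 averaged 2824 ± 92.7 with the combination, 4609 ± 685 with SAHA, 3115 ± 470.1 with ABT-869 and 4864 ± 335 with DMSO, a fall of 1.72-fold against DMSO (limma adjusted p = 0.0156). The direction of HK2 depends on the probe set: its 2 dimmer probe sets were 1.37 and 1.38 higher on the log2 scale in the same comparison (adjusted p = 0.0129 and 0.0364). The HK2 call also went without MV4-11 DMSO replicate 1 (adjusted p = 0.0574) or replicate 2 (0.0596). HK3, the myeloid hexokinase, was below the median signal in these cells (14.1 ± 1.88 with the combination and 20.5 ± 3.64 with DMSO).

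Fructose-1,6-bisphosphate is split by aldolases, of which ALDOA is the general form and ALDOC the form best known from brain. ALDOC had signals of 2410.0, 2579 and 3402 with the combination, 8603, 8806 and 9946 with SAHA, 5944, 9681 and 7409.5 with ABT-869 and 12119, 12469 and 11899.6 with DMSO. No combination array reached the lowest array of any other group, and no treated array reached DMSO. ALDOC was 4.40-fold lower with the combination than with DMSO (log2 change -2.14, SE 0.20, limma adjusted p = 0.000503). For ALDOA the means were 30846 ± 1874 with the combination and 35733 ± 2079 with DMSO, and the 95% interval of the log2 change ran from -0.51 to 0.08.

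PFKFB4 belongs to the enzymes that make and break fructose-2,6-bisphosphate, the strongest activator of phosphofructokinase. In MV4-11 it gave 1342, 1151 and 1715 with the combination, 3756, 3280.5 and 3993 with SAHA, 2271, 3027 and 2546 with ABT-869 and 3854, 3841 and 3710.4 with DMSO. The combination arrays lay below all others, and the SAHA arrays overlapped with DMSO. The fall was 2.75-fold (log2 change -1.46, SE 0.17, limma adjusted p = 0.00162), and the other probe set of the gene was also lower (-0.88 log2, adjusted p = 0.0278). PFKFB3, its relative with the highest kinase activity, had 846 ± 87.5 with the combination and 614 ± 28.8 with DMSO, which did not pass the test (log2 0.46 ± 0.13, limma adjusted p = 0.0646). PFKFB2 lay below the median signal, at 68.4 ± 43.3 with the combination and 95.1 ± 7.37 with DMSO. The phosphofructokinase subunits PFKL, PFKM and PFKP, with log2 changes of 0.01, -0.28 and -0.35, did not pass the test.

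Lower glycolysis includes 2 enolases, the general ENO1 and the neuronal form ENO2. The signals of ENO2 in MV4-11 were 553, 420.1 and 586 with the combination, 1340.2, 1822 and 2285 with SAHA, 758, 986 and 978 with ABT-869 and 2357, 2013 and 2095 with DMSO. ABT-869 arrays lay between the combination and DMSO without overlap with either, and the SAHA arrays all lay above ABT-869 and partly within the DMSO range. ENO2 was 4.18-fold lower with the combination than with DMSO (log2 change -2.06, SE 0.22, limma adjusted p = 0.000975). For ENO1 the log2 change was -0.29 ± 0.13 (SE), which did not pass the test.

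In the central chain, 10 genes, GPI, ALDOA, TPI1, GAPDH, PGK1, PGAM1, ENO1, PKM, LDHA and LDHB, were very bright, with mean signals above 10000. On the probe sets used, none of these was called with the combination in MV4-11. Of 6 PGK1 probe sets above the median signal, 5 were lower and 1 was called lower in this comparison, and 1 of the 6 was called lower in MOLM-14. GPI converts glucose-6-phosphate to fructose-6-phosphate, TPI1 interconverts the triose phosphates, GAPDH and PGK1 carry out the first oxidation and the first ATP-yielding step, PGAM1 moves the phosphate that enolase then acts on, and PKM makes pyruvate. Over these and BNIP3 and MXD2, which also exceeded 10000, log2 changes with the combination ran from -0.79 to 0.29 with a median of -0.25, and 11 of the 12 lay below 0. How close such bright spots came to the limit of the scanner was not tested, and many GAPDH pseudogenes could share its probes. LDHA, which turns pyruvate into lactate, had 32279 ± 3058 with the combination and 39127 ± 2188 with DMSO. PDK1, a kinase that switches off pyruvate dehydrogenase, had 3369 ± 227 with the combination and 4383 ± 114 with DMSO (limma adjusted p = 0.0815), and PDK3, of the same family, had 847 ± 47.8 with the combination and 721 ± 21.4 with DMSO (limma adjusted p = 0.308).

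Among the oxygen sensors and hydroxylases, KDM3A, a histone demethylase that removes methyl groups from lysine 9 of histone H3, had signals of 3409, 3554 and 3250.0 with the combination, 5499, 5797 and 6409 with SAHA, 5079.9, 5869 and 5739 with ABT-869 and 7222, 7013 and 6969 with DMSO in MV4-11. The combination arrays were the lowest, the DMSO arrays the highest, and the single drugs lay between them and overlapped with each other. KDM3A fell 2.08-fold with the combination (log2 change -1.05, SE 0.12, limma adjusted p = 0.00109). With the mean of its probe sets, of which the other had a signal of 8.02, the log2 change was -0.40 (adjusted p = 0.770) and the difference between the lines 0.24 (adjusted p = 0.935). P4HA1, a subunit of the collagen prolyl hydroxylase, fell 1.88-fold, to 7009 ± 515 with the combination, against 13175 ± 414 with DMSO (limma adjusted p = 0.00261), though a dimmer probe set of P4HA1 gave 0.59 log2 (adjusted p = 0.811). EGLN1, the main HIF prolyl hydroxylase, fell 1.37-fold to 5049.7 ± 52.2, against 6897 ± 270.5 with DMSO (limma adjusted p = 0.0224), and its 4 probe sets were all lower, 2 of them past the threshold. The EGLN1 call was lost without any 1 of the 3 DMSO arrays or without combination replicate 1 or 2 (adjusted p = 0.0507 to 0.0809). HIF1A, the oxygen-regulated HIF subunit itself, had 5224 ± 519 with the combination and 4788 ± 93.9 with DMSO (log2 0.12 ± 0.12, not past the test), and EGLN3, below the median signal, had 30.3 ± 22.4 with the combination and 59.6 ± 19.5 with DMSO (log2 -1.44 ± 0.86, not past the test).

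Effectors that hypoxia induces made up the last step, and 4 of 6 fell. ANKRD37, a small ankyrin-repeat protein, gave 464, 578 and 475 with the combination, 649, 889.8 and 1189 with SAHA, 968, 1033 and 1119 with ABT-869 and 1317, 1374 and 1382 with DMSO. Every treated array lay below the DMSO arrays, the combination arrays lay below all, and the SAHA arrays had the widest spread. The fall with the combination was 2.70-fold (log2 change -1.43, SE 0.21, limma adjusted p = 0.00350). With the mean of both its probe sets, the other of which lay below the median signal, the log2 change was -0.94 (adjusted p = 0.247). BNIP3, a receptor for the removal of mitochondria, had 7822 ± 708 with the combination and 13468 ± 326 with DMSO (limma adjusted p = 0.00665), whereas its homologue BNIP3L had 8426 ± 657 with the combination and 7982 ± 172 with DMSO (not past the test). MXD2, an antagonist of MYC, fell 1.69-fold, to 8629 ± 549, against 14588 ± 422 with DMSO (limma adjusted p = 0.00987). VEGFA, the vascular endothelial growth factor, fell 1.63-fold to 8891 ± 329.9, against 14479 ± 428 with DMSO (limma adjusted p = 0.00622), with all 4 of its probe sets called lower. ADM, the vasodilator adrenomedullin, had 3752 ± 1223 with the combination and 6698 ± 555 with DMSO, which did not pass the test (log2 -0.89 ± 0.26, limma adjusted p = 0.0707).

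Markers of other cells and RNA quality were set beside these changes. The summed signal of 7 markers of other cell types was 2506.8 to 3112.6 with the combination and 4054.1 to 4274.4 with DMSO in MV4-11, 1 of the 7 was called, PECAM1 (lower), which made up most of the sum (2132 ± 272 with the combination and 3339 ± 206 with DMSO), and none was listed at 0, although CD3E, MS4A1, EPCAM and ALB stayed at or below 139. In MOLM-14 the sum was 4686.8 to 5192 with the combination and 4485.2 to 5045.2 with DMSO. On all arrays of both lines HBB lay between 68.9 and 229.6, COL1A1 between 227.5 and 579.5 and PECAM1 between 1817.7 and 4984.1. COL1A1 was thus above every array median. The sum mainly follows PECAM1 and is not read as an amount of other cells. Of the 7 myeloid markers 1 was called higher with the combination in each line, ITGAM in MOLM-14 (0.91 log2) and LYZ in MV4-11 (0.53 log2). The ACTB 3' to 5' ratio was 1.16 to 1.38 with the combination and 1.21 to 1.28 with DMSO, which overlapped. The part of the marker difference in the changes above was not tested. With the farthest arrays named above left out, 11 genes were called lower and 1 higher in MV4-11, without EGLN1.

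**Figure D1:**
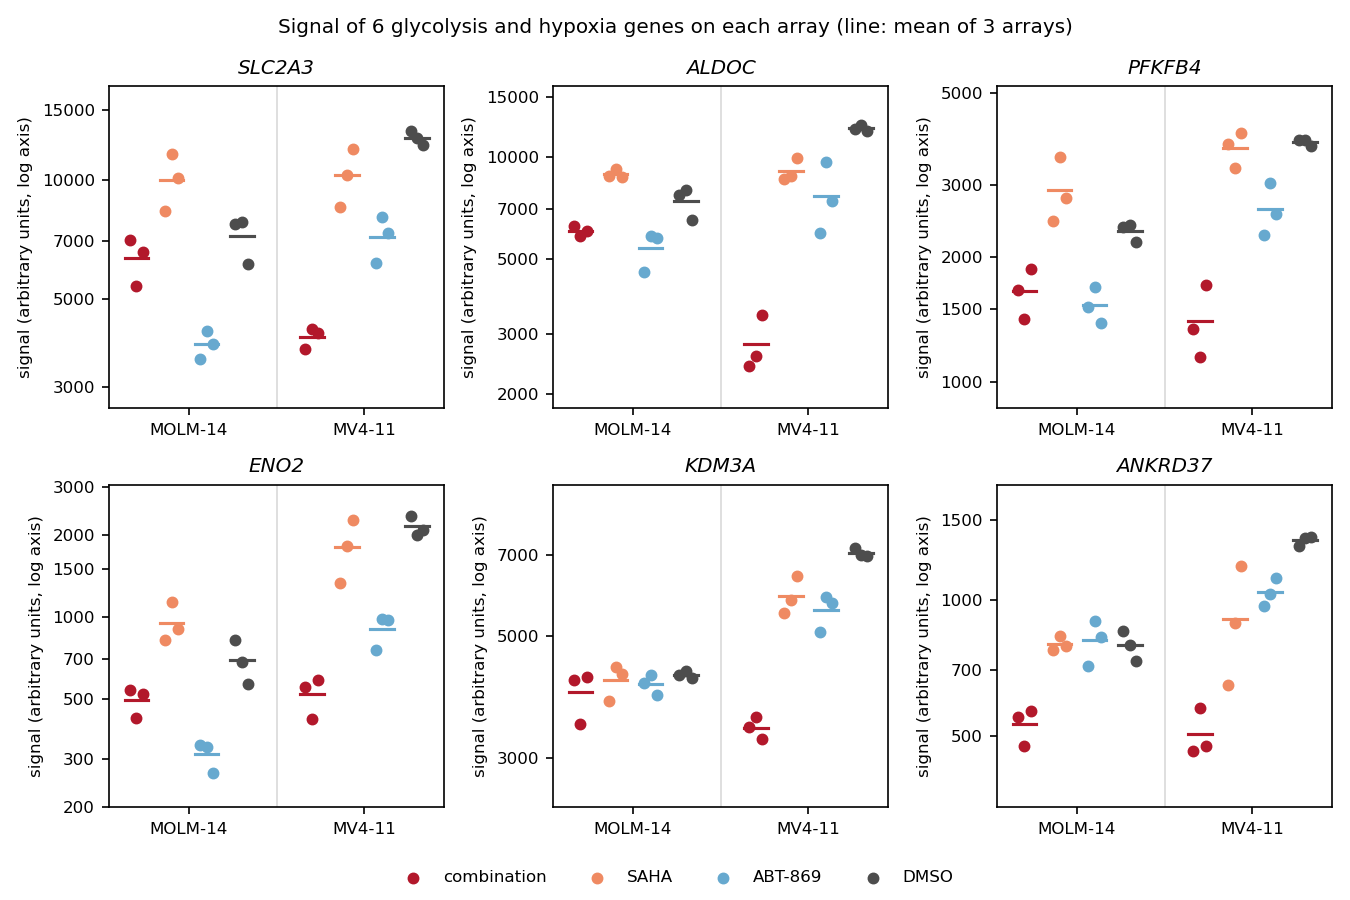
Signals of 6 genes on each of the 24 arrays (log axis, arbitrary units), with MOLM-14 left and MV4-11 right in each panel and, within a line, combination, SAHA, ABT-869 and DMSO from the left; points are arrays and bars are means of 3. In MV4-11 the combination arrays of all 6 genes lie below the DMSO arrays, for ALDOC at 2410.0, 2579 and 3402 against 12119, 12469 and 11899.6.

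The HIF dimer binds DNA at the core letters ACGTG or GCGTG, and promoters of 4 of the genes that fell are shown with these letters in capitals on either strand (so that CACGT and CACGC are also in capitals) to let a reader see where they lie. ENO2 and ALDOC had the largest falls in MV4-11, and ANKRD37 and BNIP3 were called lower in both lines. The sequences are from RefSeq (GRCh38.p14), read along the strand of the gene from 250 bases before the transcription start to 50 bases after it, at chr12:6914330-6914629, plus strand for ENO2, chr17:28576846-28577145, minus strand for ALDOC, chr4:185396591-185396890, plus strand for ANKRD37 and chr10:131981874-131982173, minus strand for BNIP3.
ENO2: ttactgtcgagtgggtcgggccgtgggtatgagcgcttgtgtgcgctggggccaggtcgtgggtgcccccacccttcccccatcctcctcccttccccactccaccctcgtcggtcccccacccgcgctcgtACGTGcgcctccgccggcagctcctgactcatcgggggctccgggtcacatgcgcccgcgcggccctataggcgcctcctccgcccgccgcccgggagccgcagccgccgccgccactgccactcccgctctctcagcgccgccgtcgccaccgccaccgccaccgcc
ALDOC: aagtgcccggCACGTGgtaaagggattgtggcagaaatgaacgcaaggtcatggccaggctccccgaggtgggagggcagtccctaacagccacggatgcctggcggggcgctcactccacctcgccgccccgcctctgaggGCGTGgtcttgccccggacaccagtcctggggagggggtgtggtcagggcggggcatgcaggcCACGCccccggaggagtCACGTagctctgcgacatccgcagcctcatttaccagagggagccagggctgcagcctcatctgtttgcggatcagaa
ANKRD37: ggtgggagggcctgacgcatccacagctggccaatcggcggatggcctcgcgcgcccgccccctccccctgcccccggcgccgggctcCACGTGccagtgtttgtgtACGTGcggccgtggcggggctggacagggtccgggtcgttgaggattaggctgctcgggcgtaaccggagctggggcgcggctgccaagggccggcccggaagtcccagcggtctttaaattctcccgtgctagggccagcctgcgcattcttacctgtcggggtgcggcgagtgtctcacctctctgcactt
BNIP3: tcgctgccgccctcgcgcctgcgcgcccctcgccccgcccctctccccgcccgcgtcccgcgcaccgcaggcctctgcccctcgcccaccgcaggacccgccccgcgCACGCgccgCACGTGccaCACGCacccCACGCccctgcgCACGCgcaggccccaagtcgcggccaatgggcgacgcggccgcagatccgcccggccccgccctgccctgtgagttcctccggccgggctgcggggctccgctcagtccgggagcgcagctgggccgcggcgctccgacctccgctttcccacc
The ENO2 window held the letters at 1 position, ALDOC at 5, ANKRD37 at 3 and BNIP3 at 6, where CACGTG, the E-box that MYC family proteins bind, overlaps ACGTG on both strands and so counts once on each. It was in the ALDOC, ANKRD37 and BNIP3 windows 1 time each. Over RefSeq promoters of 300 bases, 48.4% of 35116 held ACGTG or GCGTG on either strand and 21.4% held ACGTG. Of the 32 listed genes with an entry, 23 (71.9%) held one of them, 9 of the 10 called lower with the combination in MV4-11 (90.0%) and 14 of the other 22 (63.6%), and ACGTG alone was in 7 of the 10 (70.0%) and 6 of the 22 (27.3%). SLC2A3 and VEGFA, also called lower in MV4-11, had no entry and are in none of these shares. For each gene 1 window was used. For some genes it lay inside the gene, such as KDM3A and PFKFB4 of those called and GPI and PGAM1 of the others. Whether the shares of called and other genes differ was not tested. A match in these windows describes the letters and is not a measured binding site.

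Each drug was also compared with DMSO by itself. With ABT-869 over DMSO in MV4-11, 2 genes fell and none rose, 5.56% against 0.491% of all probe sets and 1.21% of the genes above the median signal called lower. ENO2 fell 2.39-fold (log2 -1.26 ± 0.22 SE, limma adjusted p = 0.0384) and VEGFA 1.64-fold, to 8832 ± 311, against 14479 ± 428 with DMSO (limma adjusted p = 0.0302). Both calls were lost when any 1 of the 3 ABT-869 or 3 DMSO arrays was left out (adjusted p = 0.0752 to 0.135). On the probe set used, SLC2A3 was just outside the threshold (log2 -0.84 ± 0.16, limma adjusted p = 0.0501), while all 3 of its probe sets were lower and 1 was called. At an unadjusted p under 0.05, 11 genes of the list (30.6%) were lower and 2 (5.56%) higher, with 5.47% of all probe sets being lower and 7.89% higher at that p. Among the genes above the median signal, 10.1% were lower and 11.3% higher at that p.

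SAHA over DMSO raised 2 genes in MV4-11 and lowered none, 5.56% against 1.47% of all probe sets and 3.96% of the genes above the median signal called higher. They were HK1, 1.68-fold (limma adjusted p = 0.0284), and the mitophagy receptor BNIP3L, 1.53-fold, at 12237 ± 449 with SAHA and 7982 ± 172 with DMSO (limma adjusted p = 0.0275). Without any 1 of the 3 SAHA arrays or without DMSO replicate 1 or 2 neither was called (adjusted p = 0.0761 to 0.104). For the 6 genes with the largest called falls under the combination, SAHA gave log2 changes between -0.62 for ANKRD37 and -0.05 for PFKFB4, none past the test.

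The combination was also set against each drug alone. In MV4-11, 7 genes were lower with the combination than with ABT-869 and none was higher, 19.4% against 1.81% of all probe sets and 4.48% of the genes above the median signal. They were ALDOC (-1.44 ± 0.20 log2, SE), ANKRD37 (-1.05 ± 0.21), PFKFB4 (-0.91 ± 0.17), SLC2A3 (-0.84 ± 0.16), KDM3A (-0.71 ± 0.12), BNIP3 (-0.66 ± 0.13) and P4HA1 (-0.57 ± 0.12), with limma adjusted p between 0.00676 and 0.0377. ENO2 (-0.81 ± 0.22, adjusted p = 0.0843) and VEGFA (0.01 ± 0.11) did not pass. Against SAHA alone 6 genes were lower with the combination and none was higher, 16.7% against 0.566% of all probe sets and 1.6% of the genes above the median signal. ENO2 (-1.79 ± 0.22), ALDOC (-1.72 ± 0.20), PFKFB4 (-1.41 ± 0.17), SLC2A3 (-1.34 ± 0.16), P4HA1 (-0.83 ± 0.12) and KDM3A (-0.79 ± 0.12) made up this set, with limma adjusted p between 0.00927 and 0.0226. Without single arrays these counts were 1 to 6 against ABT-869 and 2 to 6 against SAHA.

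Whether the combination departed from the sum of the 2 single changes was tested as its own contrast on the log2 scale. No gene of the list passed in MV4-11 (limma), where 0.022% of all probe sets did, and 12 genes (33.3%) were below and 2 (5.56%) above the sum at an unadjusted p under 0.05, against 4.35% and 3.91% of all probe sets. Among the genes above the median signal, 6.66% were below and 5.93% above the sum at that p. The estimates for the genes with the largest falls were -1.03 ± 0.28 (SE) for ALDOC, -0.85 ± 0.25 for PFKFB4, -0.53 ± 0.31 for ENO2 and -0.51 ± 0.22 for SLC2A3. In MOLM-14 none passed either, where 0.0128% of all probe sets did, and 1 gene (2.78%) was below and 2 (5.56%) were above the sum at an unadjusted p under 0.05, against 1.89% and 5.54% of all probe sets. Of the genes above the median signal, 2.07% were below and 3.55% above the sum at that p in MOLM-14.

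In MOLM-14 the combination lowered 3 of the 36 genes against DMSO, PFKP, BNIP3 and ANKRD37, and raised none, 8.33% against 2.8% of all probe sets and 6.79% of the genes above the median signal called lower, a share near that of bright genes. PFKP, the platelet-type phosphofructokinase subunit, averaged 4892 ± 123 with the combination and 6758 ± 486 with DMSO (log2 -0.46 ± 0.10, limma adjusted p = 0.0280). BNIP3 averaged 8079.8 ± 1028 with the combination and 12642 ± 658 with DMSO (log2 -0.65 ± 0.13, limma adjusted p = 0.0197). ANKRD37 had signals of 550.4, 475 and 569 with the combination, 775, 831 and 789 with SAHA, 714, 899.5 and 829 with ABT-869 and 854, 795 and 733 with DMSO, and only the combination arrays stood below the rest (log2 -0.58 ± 0.13, limma adjusted p = 0.0309). All 3 calls were lost without MOLM-14 DMSO replicate 1 or 2 or combination replicate 2 or 3 (adjusted p = 0.0541 to 0.111), and without the arrays that stood apart none was called. The median change over the list was -0.05, against 0.03 over all probe sets.

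The genes with the largest called falls in MV4-11 were not called in MOLM-14, apart from ANKRD37. SLC2A3 gave 7064, 5383 and 6563 with the combination, 8339, 11624 and 10093 with SAHA, 3523, 4143 and 3848 with ABT-869 and 7715, 7806 and 6134 with DMSO. Here the ABT-869 arrays were the lowest, the SAHA arrays the highest, and the combination arrays overlapped with DMSO. The ENO2 signals were 538, 426 and 522 with the combination, 821, 1132 and 907 with SAHA, 338, 333 and 265 with ABT-869 and 826, 685 and 567 with DMSO, again with ABT-869 below and without overlap. For ALDOC they were 6259, 5844 and 6054 with the combination, 8776, 9212 and 8708 with SAHA, 4564, 5857 and 5772 with ABT-869 and 7746, 7974 and 6519.6 with DMSO. The combination and ABT-869 arrays of ALDOC all lay below DMSO and overlapped with each other.

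For PFKFB4 the MOLM-14 signals were 1668, 1422 and 1875 with the combination, 2452, 3503 and 2786 with SAHA, 1515, 1699.7 and 1391 with ABT-869 and 2374, 2399 and 2176 with DMSO, so that combination and ABT-869 arrays both lay under DMSO. KDM3A gave 4159.9, 3453 and 4214 with the combination, 3804, 4394 and 4264 with SAHA, 4094, 4242 and 3899 with ABT-869 and 4239.9, 4318 and 4183 with DMSO, a narrow band in which combination, SAHA and DMSO arrays overlapped. None of these 5 genes passed the test against DMSO with the combination in MOLM-14, where the log2 changes were -0.19 for SLC2A3, -0.47 for ENO2, -0.29 for ALDOC, -0.49 for PFKFB4 and -0.11 for KDM3A.

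ABT-869 over DMSO in MOLM-14 gave no call on the list (limma), where 0.0165% of all probe sets were called, and 12 genes (33.3%) were lower and none higher at an unadjusted p under 0.05, with 4% of all probe sets being lower and 3.27% higher at that p. Of the genes above the median signal, 5.6% were lower and 3.18% higher at that p. ENO2 (-1.14 ± 0.19 log2, SE, limma adjusted p = 0.168), ADM (-0.93 ± 0.25) and SLC2A3 (-0.91 ± 0.17) had the lowest estimates. SAHA raised 1 gene over DMSO, HK1, 2.78% against 2.74% of all probe sets and 6.67% of the genes above the median signal called higher. HK1 averaged 4674 ± 428 with SAHA and 2501 ± 217 with DMSO, 1.87-fold, without overlap (limma adjusted p = 0.0105), and on the probe sets used here it was called higher with SAHA in both lines. Of the probe sets above the median signal, 1 of 2 for BNIP3L and 1 of 5 for PDK3 were called higher with SAHA in each line, and 1 of 3 for SLC2A3 in MOLM-14 only. On the probe set used here BNIP3L was at 13275 ± 1339.5 with SAHA and 9803 ± 163 with DMSO, just outside the threshold (limma adjusted p = 0.0561).

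Set against ABT-869 alone in MOLM-14, the combination was higher for 5 genes and lower for 1. The 5 were ADM (1.01 ± 0.25 log2, SE), SLC2A3 (0.72 ± 0.17), VEGFA (0.67 ± 0.10), HK1 (0.64 ± 0.14) and BNIP3L (0.46 ± 0.11), and the lower one was ANKRD37 (-0.61 ± 0.13), with limma adjusted p between 0.00512 and 0.0375. Higher calls were 13.9% of the list, against 4.48% of all probe sets and 10.3% of the genes above the median signal, and lower calls 2.78%, against 3.54% and 8.72%. Centring the arrays on their medians left 1 higher and 1 lower, and single arrays left out gave 2 to 7 calls. In MV4-11 the same contrast had been lower for SLC2A3 and gave 0.01 ± 0.11 for VEGFA. Against SAHA alone no gene was called in MOLM-14 (limma), where 0.0146% of all probe sets were, and 11 genes (30.6%) were lower and none higher at an unadjusted p under 0.05, with 2.62% of all probe sets being lower and 7.03% higher at that p. Of the genes above the median signal, 4.56% were lower and 3.86% higher at that p.

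**Figure D2:**
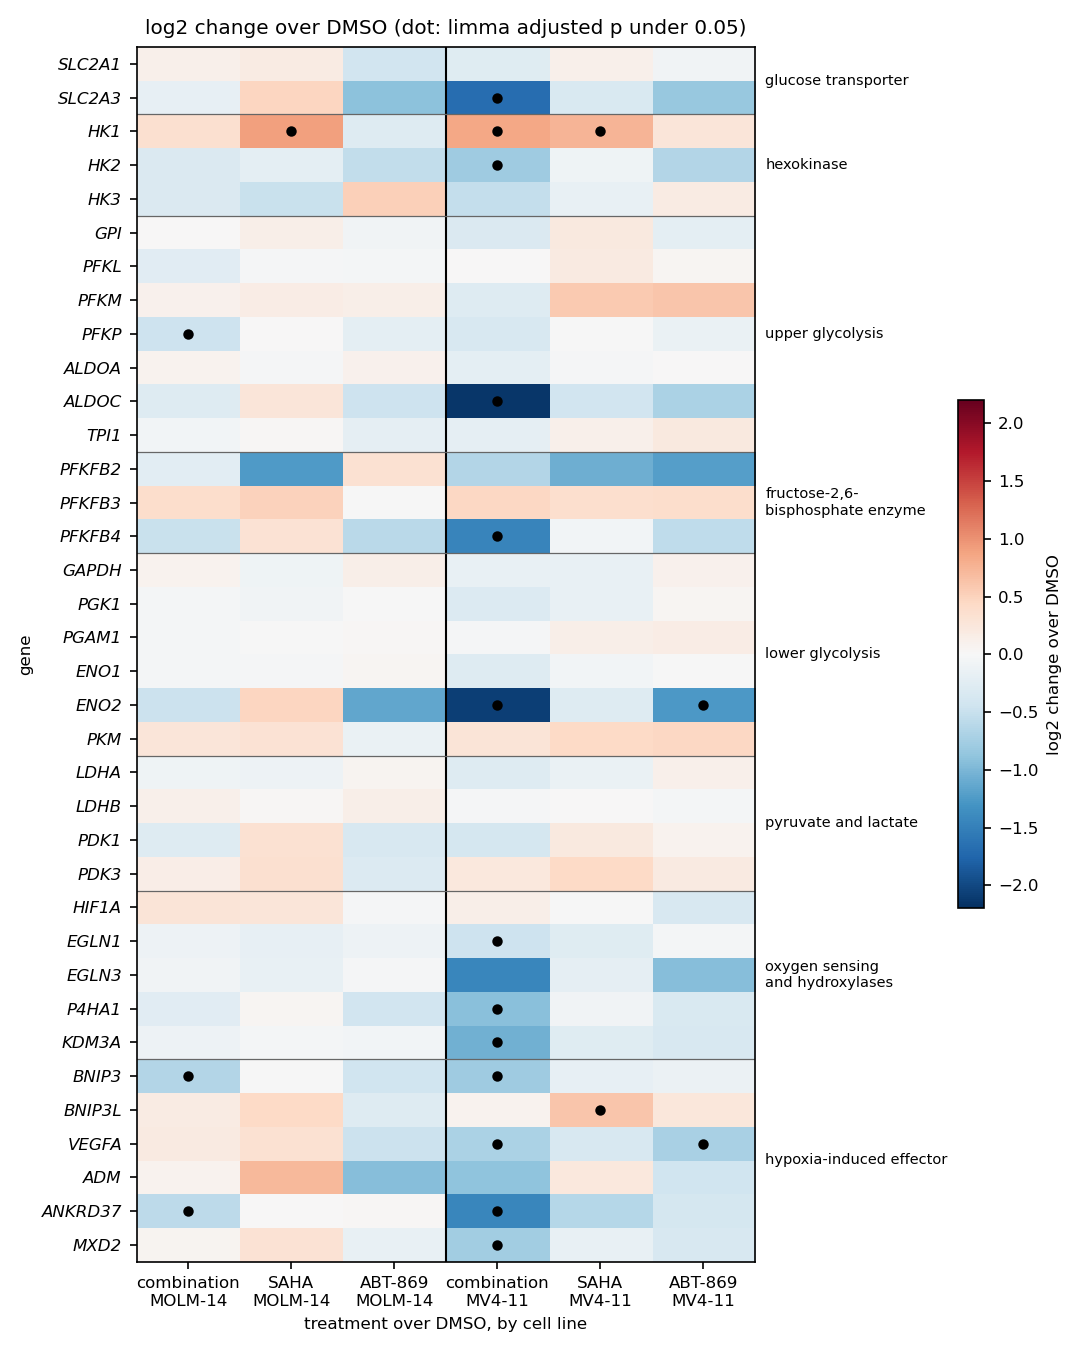
Log2 change of the 36 genes (rows, by pathway step) over DMSO with the combination, SAHA and ABT-869, in MOLM-14 (left) and MV4-11 (right); blue is lower and red is higher than DMSO, and a dot marks a limma adjusted p under 0.05. The combination column of MV4-11 has 13 dots (12 lower, 1 higher) and that of MOLM-14 has 3, and HK1 is the gene with a dot under SAHA in both lines.

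To ask whether the lines responded differently, the change in MOLM-14 minus the change in MV4-11 was estimated as a contrast of its own, with all 24 arrays in the fit. For the combination over DMSO, 9 genes had a higher log2 change in MOLM-14 than in MV4-11 and none a lower one, 25% of the list against 3.14% of all probe sets and 7.74% of the genes above the median signal. The differences (MOLM-14 minus MV4-11, with SE) were 1.85 ± 0.23 for ALDOC, 1.59 ± 0.29 for ENO2, 1.48 ± 0.22 for SLC2A3, 0.97 ± 0.23 for PFKFB4, 0.94 ± 0.14 for KDM3A, 0.90 ± 0.13 for VEGFA, 0.85 ± 0.23 for ANKRD37, 0.82 ± 0.16 for MXD2 and 0.67 ± 0.15 for P4HA1, with limma adjusted p from 0.000103 (ALDOC) to 0.0362 (ANKRD37). VEGFA was 9719.5 ± 881 with the combination and 8445 ± 66.5 with DMSO in MOLM-14, without overlap but not past the test, whereas it fell in MV4-11. BNIP3, called lower in both lines, differed by 0.14 ± 0.17, with a 95% interval from -0.22 to 0.49. HK1 differed by -0.49 ± 0.18 (limma adjusted p = 0.133).

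Centring the arrays on their medians left 5 of the 9 (without PFKFB4, P4HA1, ANKRD37 and MXD2), and the ANKRD37 difference was also lost when any 1 of 9 single DMSO or combination arrays was left out (adjusted p = 0.0605 to 0.0885). For SAHA over DMSO 1 gene differed, VEGFA, 2.78% against 0.599% of all probe sets and 1.65% of the genes above the median signal called higher. It averaged 10629.9 ± 223 with SAHA and 8445 ± 66.5 with DMSO in MOLM-14, and 11382 ± 1148 with SAHA and 14479 ± 428 with DMSO in MV4-11, a difference of 0.68 ± 0.13 (limma adjusted p = 0.0145). For ABT-869 over DMSO no gene of the list differed (limma), where 0.352% of all probe sets did in either direction, and 6 genes (16.7%) had a lower log2 change in MOLM-14 and none a higher one at an unadjusted p under 0.05, against 6.08% and 4.15% of all probe sets. Among the genes above the median signal these shares were 8.31% and 7.04%. With ABT-869 the log2 change of ENO2 was -1.14 in MOLM-14, not past the test, and -1.26 in MV4-11, with a 95% interval of the difference from -0.49 to 0.72.

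**Figure D3:**
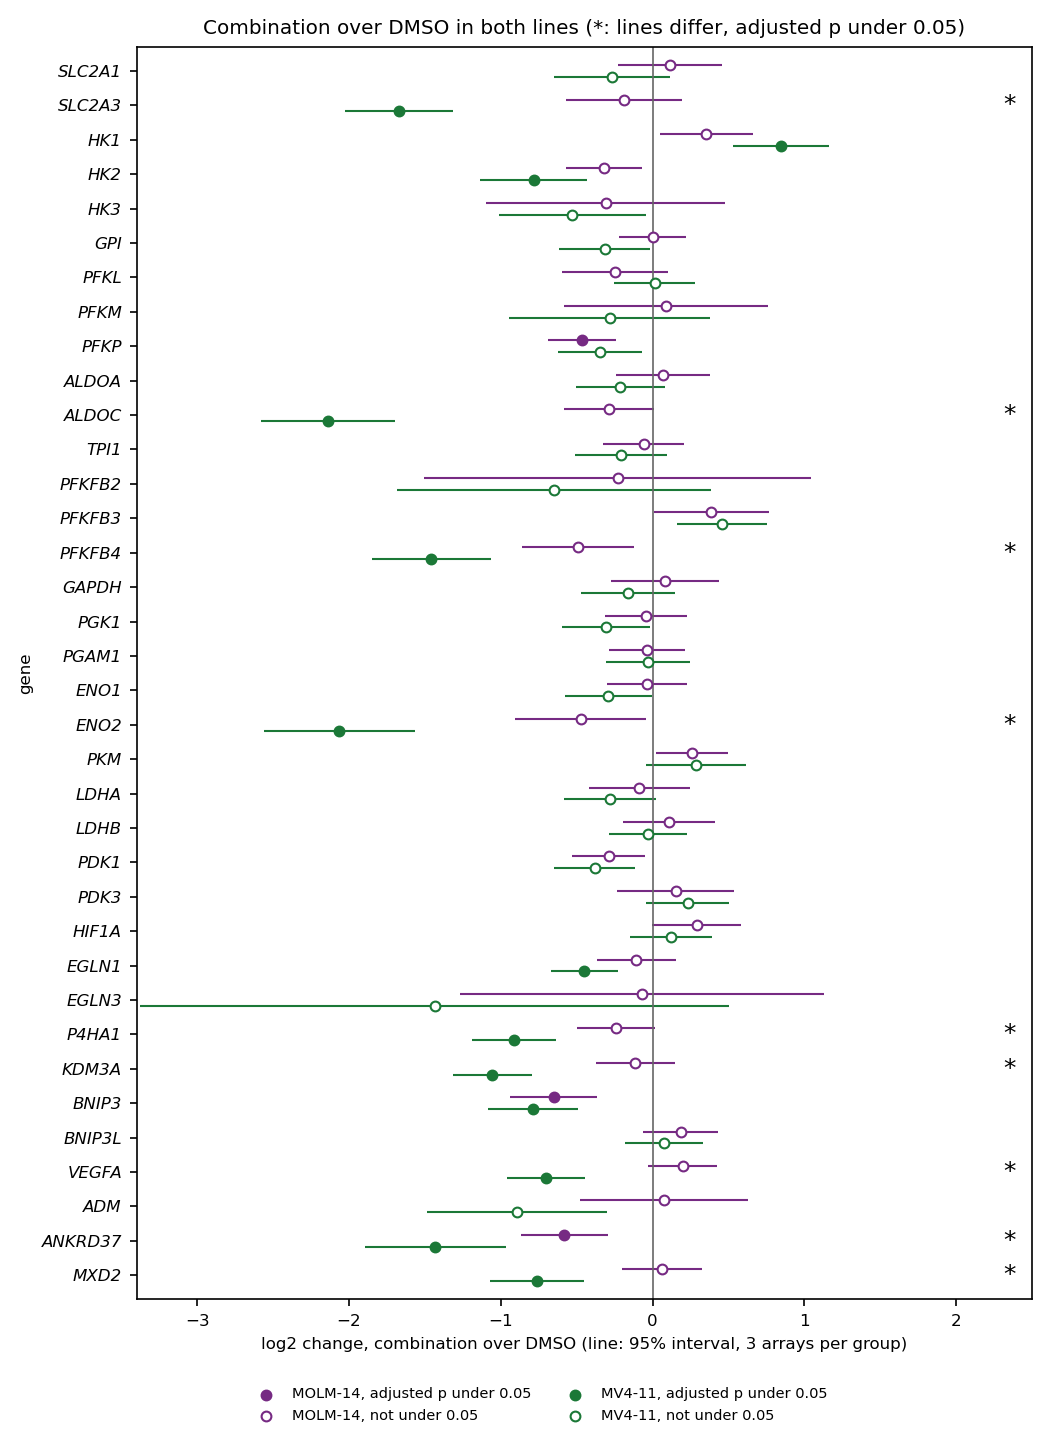
Log2 change with the combination over DMSO for the 36 genes in MOLM-14 (purple, upper of each pair) and MV4-11 (green, lower), with 95% intervals from 3 arrays per group; filled points have a limma adjusted p under 0.05, and a star marks the 9 genes whose change differed between the lines. ALDOC is at -0.29 in MOLM-14 and -2.14 in MV4-11, while BNIP3 is at -0.65 and -0.79.

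The lines also differed without either drug. With DMSO, 13 genes of the list were lower and 1 was higher in MOLM-14 than in MV4-11, 36.1% lower against 5.18% of all probe sets and 10.1% of the genes above the median signal, and 2.78% higher against 4.96% and 13.4%. ENO2 had the largest difference, 692 ± 129.6 in MOLM-14 and 2155 ± 179 in MV4-11 (3.14-fold lower, limma adjusted p = 7.00e-05). The other lower genes were ADM, SLC2A3, MXD2, VEGFA, ANKRD37, KDM3A, ALDOC, PFKFB4, HK2, GAPDH, PFKP and P4HA1, by 0.87 to 0.37 on the log2 scale. The direction of HK2 again depends on the probe set: 2 of its 3 were higher in MOLM-14, by up to 0.77, without a call. The mean of its probe sets gave 0.27 (limma adjusted p = 0.218). PFKFB3 was 1.68-fold higher (1037 ± 159 in MOLM-14 and 614 ± 28.8 in MV4-11, limma adjusted p = 0.00265). The GAPDH call was lost in 18 of the 24 fits without 1 array, and under quantile normalization its difference was -0.02 (adjusted p = 0.938). ADM and P4HA1 each lost the call in 6 of the 24 and PFKP in 1. For ADM and P4HA1 these were the fits without any 1 of the 6 DMSO arrays (limma adjusted p = 0.0560 to 0.134). Only DMSO arrays form this difference, so neither call survived the loss of any array compared. The median difference was -0.27 over the list and -0.15 over all probe sets. Centring the arrays on their medians, which put the median over all probe sets at 0.11, gave 6 higher and 5 lower genes, with 6 of the 14 shared, while quantile normalization gave 1 higher and 12 lower. A fit of only the DMSO arrays called none.

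The 9 genes whose change with the combination differed between the lines were all among the genes lower in MOLM-14 with DMSO. This baseline and the combination changes use the same DMSO arrays, so the values are given side by side without relating them. SLC2A3 with DMSO was 7218 in MOLM-14 and 12771 in MV4-11, and with the combination 6337 in MOLM-14 and 4008 in MV4-11. ENO2 with DMSO was 692 in MOLM-14 and 2155 in MV4-11, and with the combination 495 in MOLM-14 and 519.7 in MV4-11. KDM3A with DMSO was 4247 in MOLM-14 and 7068 in MV4-11, and with the combination 3942 in MOLM-14 and 3404 in MV4-11. With the combination, then, mean signals of SLC2A3 and KDM3A were higher in MOLM-14 than in MV4-11, a difference between treated groups that was not tested by itself.

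Other genes of the same biology were taken from lists around the pathway. These lists too were chosen with earlier results of these data known, so their counts describe the arrays and are not independent support. Of 21 further genes that hypoxia induces, 11 fell and none rose with the combination in MV4-11, with a median log2 change of -0.58, where 4.05% of all probe sets and 9.01% of the genes above the median signal were called lower. The largest falls were in BHLHE40, a transcriptional repressor (-1.71 ± 0.16 log2, SE, limma adjusted p = 0.00051), and STC2, a secreted glycoprotein (-1.56 ± 0.23, limma adjusted p = 0.004). In MOLM-14 2 of the 21 fell, GYS1, the muscle-type glycogen synthase (-0.82 ± 0.12), and AK4, a mitochondrial adenylate kinase (-0.78 ± 0.11), with a median of -0.19, where 2.8% of all probe sets and 6.79% of the genes above the median signal were called lower. The change was higher in MOLM-14 than in MV4-11 for 5 of the 21 (3.14% of all probe sets, 7.74% above the median signal), and with DMSO 8 of the 21 were lower in MOLM-14 (5.18% and 10.1%).

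Lists of neighbouring pathways held 0 to 2 calls each with the combination. Called shares among genes above the median signal were 7.42% higher and 6.79% lower in MOLM-14 and 11.5% higher and 9.01% lower in MV4-11, and lists this short cannot be read against them. Of 17 other glycolysis and glucose genes 2 rose in MV4-11, TIGAR, a fructose-2,6-bisphosphatase (1.23 ± 0.23 log2, SE), and BPGM, the bisphosphoglycerate mutase (0.62 ± 0.14), and none was called in MOLM-14. Among 10 genes of the pyruvate dehydrogenase complex, its regulators and the mitochondrial pyruvate carrier, the phosphatase PDP1 rose (0.72 ± 0.12) and the carrier subunit MPC2 fell (-0.43 ± 0.11) in MV4-11, and DLAT, a core subunit of the complex, fell in MOLM-14 (-0.77 ± 0.11). Of 13 genes of the tricarboxylic acid cycle, SUCLG2, a succinyl-CoA ligase subunit, fell in both lines (-0.68 ± 0.10 in MOLM-14 and -0.71 ± 0.10 in MV4-11), joined in MOLM-14 by its counterpart SUCLA2 (-0.45 ± 0.11). Of 6 pentose phosphate genes the transaldolase TALDO1 rose in MV4-11 (0.51 ± 0.12) and none was called in MOLM-14. Of 7 HIF subunits and regulators EPAS1, which encodes HIF-2 alpha, rose in both lines (1.17 ± 0.22 in MOLM-14 and 0.77 ± 0.14 in MV4-11), and no other was called.

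**Figure D4:**
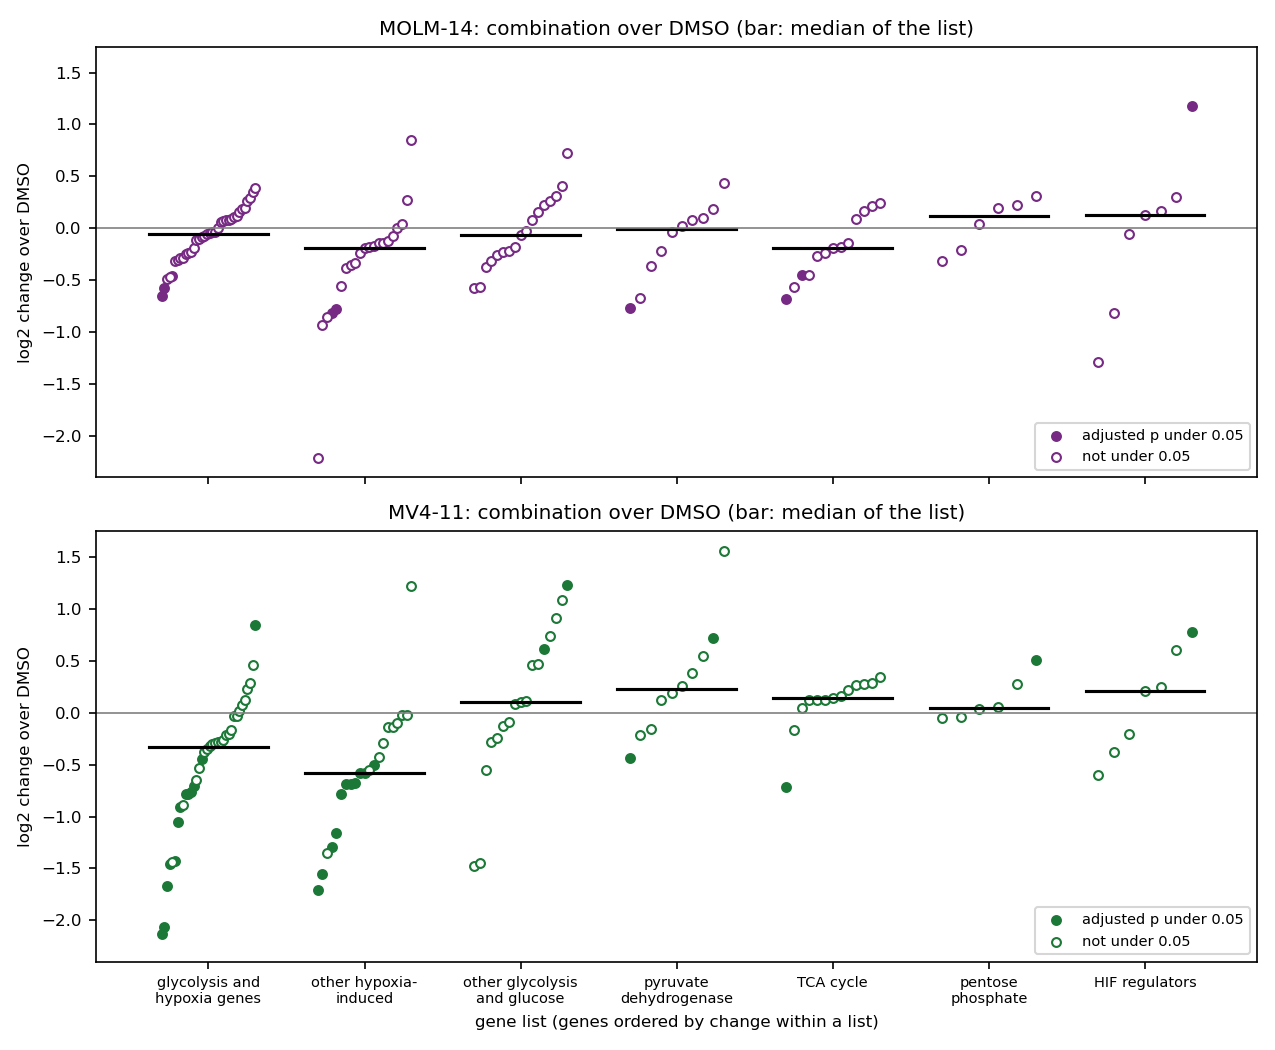
Log2 change with the combination over DMSO for each gene of 7 lists, in MOLM-14 (top) and MV4-11 (bottom); points are genes in order of change, filled where the limma adjusted p is under 0.05, and bars are list medians. In MV4-11 the median is -0.33 for the glycolysis and hypoxia genes and -0.58 for the other hypoxia-induced genes, and the medians of the other 5 lists lie above 0.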

How the data were processed

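RNA from MV4-11 and MOLM-14 cells was hybridised to Affymetrix U133 Plus 2.0 arrays. The authors deposited a linear signal intensity per probe set, 54675 per array. Each array had a 2% trimmed mean near 500, while software and annotation used upstream are not given in the sources used here. From these, 62 control probe sets were left out, 2743 values (0.209%) under 1 were raised to 1, and log2 intensities of 54613 probe sets were fitted with limma 3.58.1 in R 4.3.3 (lmFit, eBayes, Benjamini-Hochberg over all). Contrasts within a line used 1 fit of its 12 arrays, and differences between the lines 1 fit of 24. Of the probe sets, 41091 named 1 gene, 1801 several and 11721 none here. The script was tested on simulated data.

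The members and lists were chosen with earlier results of these data known. Array values are given for genes called over DMSO with a log2 change of at least 1, group means for others, and up to 2 rises and 2 falls per further list. Alternatives covered normalization, floor, dim probe sets, variance model, samples in the fit, replicate block, probe set choice, single arrays and the methods' 2-fold rule.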

Additional observations from a re-analysis of the deposited data

Results flagged for a closer look

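Of the results above, 10 differed between MOLM-14 and MV4-11 in the interaction test (limma, 1 fit over 24 arrays), given as the log2 change in MOLM-14 minus that in MV4-11 with its SE. For the combination over DMSO the difference was 1.85 ± 0.23 for ALDOC, 1.59 ± 0.29 for ENO2, 1.48 ± 0.22 for SLC2A3, 0.97 ± 0.23 for PFKFB4, 0.94 ± 0.14 for KDM3A, 0.90 ± 0.13 for VEGFA, 0.85 ± 0.23 for ANKRD37, 0.82 ± 0.16 for MXD2 and 0.67 ± 0.15 for P4HA1, from changes of -0.29 in MOLM-14 and -2.14 in MV4-11 for ALDOC to -0.24 and -0.91 for P4HA1. For SAHA over DMSO it was 0.68 ± 0.13 for VEGFA, with changes of 0.33 in MOLM-14 and -0.35 in MV4-11. Limma adjusted p ranged from 0.000103 to 0.0362. All 9 genes that differed for the combination were also called lower in MOLM-14 than in MV4-11 with DMSO. The same DMSO arrays enter both comparisons, and the part of the baseline in these differences was not tested. In the 24 fits without 1 array, 9 of the 10 differences kept their call each time and that of ANKRD37 did so in 15. Only the DMSO and treated arrays compared can move a difference, and each ANKRD37 loss came from such an array. Centring the arrays on their medians lost PFKFB4, P4HA1, ANKRD37 and MXD2 with the combination. A fit of only the groups compared lost PFKFB4, P4HA1, ANKRD37 and, with SAHA, VEGFA. The mean of all probe sets of a gene lost KDM3A, P4HA1 and ANKRD37. With another probe set P4HA1 turned, to -0.16.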

How the results depend on the processing

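Numbers in parentheses after a comparison are the genes of the list called in it. For ABT-869 over DMSO in MV4-11 (2) the count was 0 with a fit of only the groups compared or the farthest arrays left out, 6 with a floor of 32, dim probe sets left out or 1 fit over all 24 arrays and 10 with limma-trend. For SAHA over DMSO in MV4-11 (2) the count was 0 with arrays centred on their medians or a fit of only the groups compared, 1 with the 2-fold rule or the farthest arrays left out, 5 with a floor of 32 or 1 fit over all 24 arrays and 7 with dim probe sets left out or limma-trend. For combination over DMSO in MV4-11 (13) the count was 6 with a fit of only the groups compared, 7 with the 2-fold rule and 20 with limma-trend. For combination over ABT-869 in MV4-11 (7) the count was 0 with a fit of only the groups compared, 1 with arrays centred on their medians, 2 with the 2-fold rule or the farthest arrays left out, 14 with a floor of 32 or 1 fit over all 24 arrays, 15 with dim probe sets left out and 16 with limma-trend. For combination over SAHA in MV4-11 (6) the count was 0 with a fit of only the groups compared, 15 with a floor of 32, dim probe sets left out or 1 fit over all 24 arrays and 16 with limma-trend. For combination minus the sum of both drugs in MV4-11 (0) the count was 2 with a floor of 32 or dim probe sets left out, 3 with 1 fit over all 24 arrays or the 2-fold rule and 4 with limma-trend. For ABT-869 over DMSO in MOLM-14 (0) the count was 1 with dim probe sets left out or the 2-fold rule, 2 with a floor of 32 or 1 fit over all 24 arrays and 5 with limma-trend. For SAHA over DMSO in MOLM-14 (1) the count was 0 with a fit of only the groups compared, 2 with quantile normalization, 3 with the mean of all probe sets of a gene, 5 with a floor of 32 or 1 fit over all 24 arrays, 8 with arrays centred on their medians or dim probe sets left out and 9 with limma-trend. For combination over DMSO in MOLM-14 (3) the count was 0 with a fit of only the groups compared, the 2-fold rule or the farthest arrays left out, 1 with arrays centred on their medians or the mean of all probe sets of a gene, 6 with a floor of 32, 7 with dim probe sets left out and 8 with limma-trend. For combination over ABT-869 in MOLM-14 (6) the count was 0 with a fit of only the groups compared, 1 with the 2-fold rule, 2 with arrays centred on their medians or the farthest arrays left out, 10 with a floor of 32 or 1 fit over all 24 arrays, 11 with dim probe sets left out and 12 with limma-trend. For combination over SAHA in MOLM-14 (0) the count was 1 with the 2-fold rule, 2 with arrays centred on their medians or 1 fit over all 24 arrays, 3 with a floor of 32 or dim probe sets left out and 9 with limma-trend. For ABT-869 over DMSO between the lines (0) the count was 1 with the 2-fold rule and 2 with a floor of 32, dim probe sets left out or limma-trend. For SAHA over DMSO between the lines (1) the count was 0 with a fit of only the groups compared or the 2-fold rule, 2 with a floor of 32, dim probe sets left out or the mean of all probe sets of a gene and 3 with limma-trend. For combination over DMSO between the lines (9) the count was 4 with the 2-fold rule and 5 with arrays centred on their medians. For MOLM-14 over MV4-11 with DMSO (14) the count was 0 with a fit of only the groups compared and 2 with the 2-fold rule.

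Leaving out 1 array at a time gave 0 to 2 for ABT-869 over DMSO in MV4-11 (0 without DMSO 1, DMSO 2, DMSO 3, ABT-869 1, ABT-869 2, ABT-869 3, SAHA 2 or combination 1, 1 without combination 3), 0 to 2 for SAHA over DMSO in MV4-11 (0 without DMSO 1, DMSO 2, SAHA 1, SAHA 2 or SAHA 3, 1 without DMSO 3 or ABT-869 3), 1 to 6 for combination over ABT-869 in MV4-11 (1 without ABT-869 3, 2 without ABT-869 2, combination 1 or combination 2, 4 without DMSO 2, ABT-869 1, SAHA 2 or combination 3), 2 to 6 for combination over SAHA in MV4-11 (2 without SAHA 2, 3 without SAHA 1, SAHA 3 or combination 1), 0 to 3 for combination over DMSO in MOLM-14 (0 without DMSO 1, DMSO 2, combination 2 or combination 3, 1 without SAHA 3 or combination 1) and 2 to 7 for combination over ABT-869 in MOLM-14 (2 without ABT-869 2, ABT-869 3 or combination 3, 3 without DMSO 1, ABT-869 1, SAHA 3, combination 1 or combination 2), where the number after a group is its replicate. The cause was not tested.

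With the replicate number as a replicate block the count was 0 for ABT-869 over DMSO in MV4-11, 0 for SAHA over DMSO in MV4-11, 1 for combination over ABT-869 in MV4-11, 2 for combination over SAHA in MV4-11, 0 for combination over DMSO in MOLM-14 and 1 for combination over ABT-869 in MOLM-14, and no other count moved by over 1.5 times. Deviations of same-numbered arrays correlated at -0.19 to 0.18 in MV4-11 (1 of 18 pairs over 0.1) and -0.063 to 0.328 in MOLM-14 (6 of 18). Among differently numbered arrays, 7 of 36 pairs in MV4-11 and 2 of 36 in MOLM-14 were over 0.1. The share over 0.1 was thus larger for same-numbered pairs in MOLM-14 only. Whether the numbers pair the samples was not tested further.

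HK2 turned higher with the combination in MV4-11 with the mean of all its probe sets (0.66 log2, limma adjusted p = 0.0267), and in MOLM-14 over MV4-11 with DMSO (0.27). P4HA1 turned with the brightest probe set without the suffix _s_at or _x_at, to 0.59 for the combination in MV4-11 (limma adjusted p = 0.811) and -0.16 between the lines. Over the genes tested singly, 1114 of 1299 values under an alternative kept direction and call, 181 lost the call and 4 turned. These values include fits without an array of a group not compared. There the log2 change cannot move, so the share that kept its call is not a measure of stability. The setting with the farthest arrays left out was chosen after seeing the data. Signals of 3 arrays per group limit all counts, and 30.2% of all values lay under 32.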
